A study of Mus musculus with 6 samples.

Results

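The genes described are 46 genes of DNA replication, from the licensing of origins to the protection of the moving fork. They were taken from a list of names by function, and each was matched through its Entrez identifier to 1 of the 27179 genes in the count table. All 46 were among the 11005 genes tested for expression differences. They are the 6 subunits of the MCM2-7 helicase, 5 origin recognition genes, 3 helicase loading genes, 8 origin firing genes, 9 polymerase and primase genes, 6 clamp genes, 3 genes of the single-strand binding protein, 3 genes of Okazaki fragment processing and 3 fork protection genes.

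RNA-seq was performed on NP-binding IgG1+ germinal center (GC) B cells, sorted as CD38- cells without CD138, IgM, IgD or Gr1 from the spleens of mice immunized with the hapten-protein conjugate NP-KLH in alum. Of the 6 libraries, 3 were WT and 3 Il21r-/-, with a single library per genotype on day 7, on day 10 and on day 14, so no day had a replicate of its own. All donors were on the C57BL/6 background. The methods state, for all experiments but one, irradiated Ly5.1 hosts given WT or Il21r-/- bone marrow, so the receptor for IL-21 was missing from T cells and other blood cells as well as from B cells, and not from the tissues of the host or from host cells that outlive irradiation. The methods give a number of mice per genotype over a pair of immunizations, and the day 7 cells came from several mice of each genotype. How many mice stand behind each later library, and which immunization behind each library, is not clear from the methods. p-values here therefore measure the spread between these 6 libraries.

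Before S phase the origin recognition complex, with Cdc6 and Cdt1, loads the MCM2-7 helicase onto DNA in an inactive form, which licenses an origin to fire once. Kinases and loading factors then join Cdc45 and GINS to the helicase, and polymerases, the sliding clamp and the single-strand binding protein build the fork. GC B cells are among the fastest dividing cells of the body, and many of these genes are transcribed mainly from late G1 into S phase.

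The libraries held 21353438 to 27435124 counts on genes, and the replication genes took 0.598 to 0.938% of them. Il21r itself, the gene lost in the knockout, was at 346, 263 and 247 CPM (read counts scaled for library size) in WT on days 7, 10 and 14 and at 106, 128 and 113 CPM in Il21r-/-. It was lower in all 3 Il21r-/- libraries, with a log2 fold change of 1.29 (SE 0.135, adjusted p = 0.00137), and reads from any part of the gene that the knockout leaves in place would be counted here. Fold changes are given as WT over Il21r-/- throughout, and genes were called at an adjusted p under 0.05. Marker genes of naive or memory B cells summed to 304 to 730 CPM in WT and 717 to 1152 CPM in Il21r-/-, and 4 of the 7, among them S1pr1 and Ccr7, were called higher in Il21r-/-. T cell markers summed to 82.1 to 122 CPM over the 6 libraries, nearly all from Lck, and the other 7 had 0 to 26 counts in a library. Myeloid markers summed to 8.42 to 19.9 CPM, and Cd68 was called higher in Il21r-/- (log2 fold change -0.62, adjusted p = 0.0449). Plasma cell markers summed to 2524 to 2739 CPM in WT and 2774 to 3621 CPM in Il21r-/-. Most of each sum was Jchain, at 2283 to 2516 CPM in WT and 2462 to 3314 CPM in Il21r-/-. Sdc1 and Tnfrsf17 had 2 to 21 counts in a library. Prdm1, at only 0.26 to 1.83 CPM, was called higher in WT (1.64, adjusted p = 0.0216). Xbp1 was called higher in Il21r-/- (-0.39, adjusted p = 0.0396). The 10 GC B cell markers summed to 9001 to 11350 CPM in WT and 10012 to 13005 CPM in Il21r-/-, and 1 of them, Pax5, was called higher in Il21r-/- (-0.67, adjusted p = 0.0387). The part of naive or memory B cells, myeloid cells and plasma cells in the results on replication genes was not tested.

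As a group, the replication genes stood higher in WT than in Il21r-/- GC B cells on every day. Their summed level was 7582 CPM in WT and 6250 CPM in Il21r-/- on day 7, where the Il21r-/- sum was 82.4% of the WT sum. On day 10 the sums were 9088 and 6982 CPM, or 76.8%, and on day 14 they were 9088 and 7127 CPM, or 78.4%. Over the 3 days, 45 of the 46 genes had a positive log2 fold change, and Orc5 was the exception. The median was 0.36 among the replication genes and -0.01 among all genes tested. A lower level in bulk RNA can come from fewer cells in S phase or from less RNA per cell, and these cannot be told apart here.

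**Figure D1:**
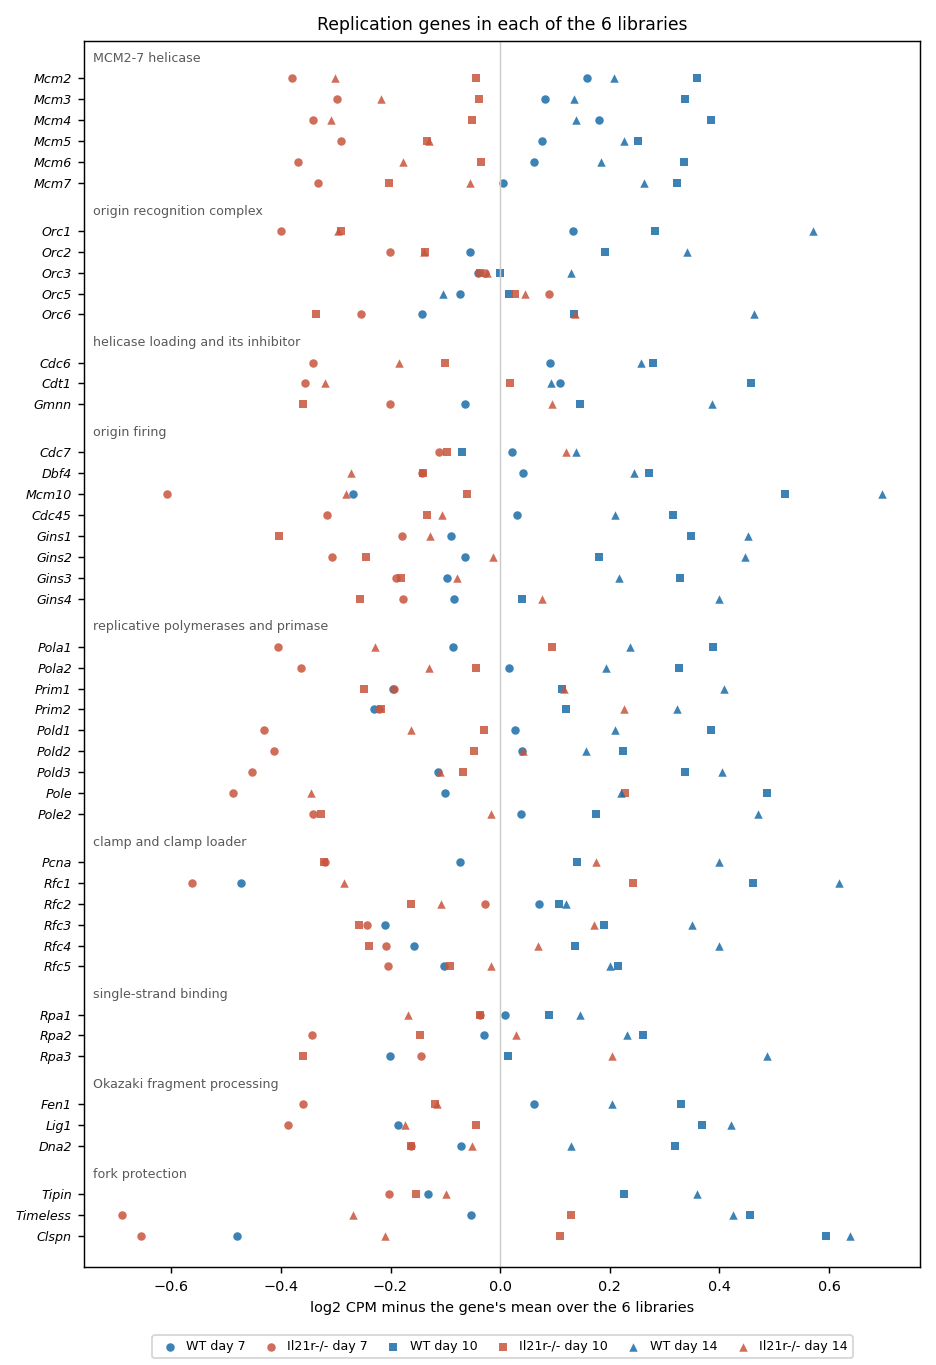
Level of each of the 46 replication genes in the 6 libraries, as log2 CPM minus the mean of that gene over the libraries, with WT in blue, Il21r-/- in red and the day given by the shape of the point. The 3 WT points lie to the right of the 3 Il21r-/- points for 19 genes, and the WT day 7 points lie to the left of the other WT points for 42 genes.

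For 19 of the 46 genes all 3 WT libraries lay above all 3 Il21r-/- libraries, against 8.33% of all genes tested. The reverse order, all Il21r-/- libraries above all WT libraries, was seen for 1 replication gene, Orc5, against 10% of all genes. The WT value was the higher one on each of the 3 days for 41 of the 46 genes, against 25.4% of all genes, and the exceptions were Orc3, Orc5, Prim1, Prim2 and Rpa3. Counted over genes and days, 131 of 138 comparisons of 2 libraries from the same day were higher in WT.

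With edgeR's quasi-likelihood test on genotype and a linear effect of day, 2 of the 46 genes were differentially expressed over the 3 days, Orc1 and Pole2, both higher in WT, where 1.4% of all genes were called higher in WT. None was called higher in Il21r-/-, where 4.52% of all genes were. At an unadjusted p under 0.05 there were 31 replication genes, against 21.4% of all genes. A further 5 genes, Mcm2, Mcm4, Mcm7, Cdc6 and Gins2, had adjusted p-values between 0.05 and 0.06. Libraries of the same day deviated together, and 35 of the 46 genes were called higher in WT once day was a block in the fit, against 9.33% of all genes, and 0 higher in Il21r-/-, against 13.6%. The 35 genes had log2 fold changes of 0.20 to 0.66 in that fit. Without the day 7, day 10 or day 14 pair the count in the block fit was 39, 24 and 18 (7.69, 5.89 and 2.9% of all genes). The 11 genes not called with the block were Orc3, Orc5, Cdc7, Prim1, Prim2, Rfc1, Rfc3, Rfc5, Rpa1, Rpa3 and Dna2, with adjusted p-values of 0.0573 to 0.706.

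**Figure D2:**
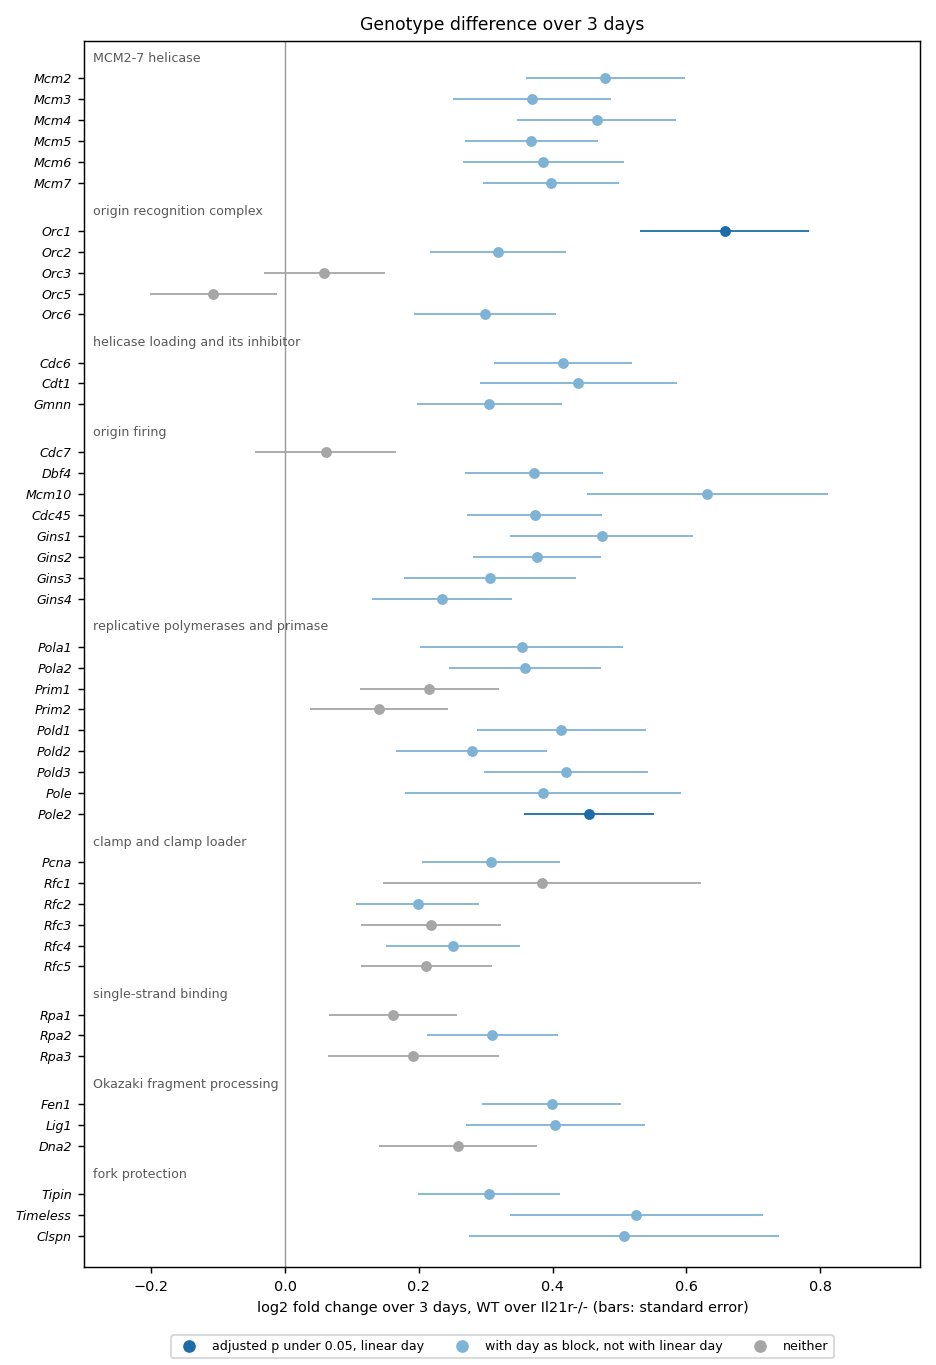
The log2 fold change of each gene over 3 days, WT over Il21r-/-, with its standard error as a bar, grouped by role. Orc1 and Pole2 are in dark blue, the 33 other genes called with day as a block are in light blue, and the 11 genes called in neither fit are in grey.

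The MCM2-7 subunits, which form the ring that unwinds DNA at the fork, had similar differences to each other. Mcm2 was at 343, 394 and 355 CPM in WT on days 7, 10 and 14 and at 236, 298 and 249 CPM in Il21r-/-. Its log2 fold change over 3 days was 0.48 (SE 0.119, adjusted p = 0.0516, with day as a block 1.11e-05), the largest of the 6. Mcm5 had the smallest, 0.37 (SE 0.100, adjusted p = 0.0703, with the block 0.000347), from 808, 911 and 895 CPM in WT and 627, 698 and 700 CPM in Il21r-/-. All 6 subunits lay between these values, none had overlapping groups, and all 6 were called with the block but not in the fit with linear day. The summed MCM2-7 level in Il21r-/- was 75.1, 75.4 and 77.2% of WT on days 7, 10 and 14, so the gap was of nearly the same size on each day.

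The order of the subunits per gene length, as given with the counts, also stayed nearly the same. Mcm5 was the highest subunit in all 6 libraries, at 183 to 266 CPM per kb. Mcm2 was the lowest in 5 libraries and Mcm4 in WT on day 14. The highest subunit stood 2.28 to 2.77 times above the lowest, although the loaded complex holds the subunits in equal number. A level of mRNA says nothing of the amount of protein.

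The promoter windows of 6 genes are printed, each being the gene with the largest log2 fold change of its role group, from RefSeq on GRCm38.p6. Each window runs from 250 bases before to 50 bases after the annotated start, 5′ to 3′ on the strand of the gene. Capitals mark matches to the E2F-type words TTTCCCGC, TTTCGCGC, TTTGCCGC and TTTGGCGC on either strand. E2F factors are the main transcription factors of the G1/S transition, and replication genes are among their known targets. The Mcm2 window, chr6:88898731-88899030 on the minus strand, held none of these words.
Mcm2: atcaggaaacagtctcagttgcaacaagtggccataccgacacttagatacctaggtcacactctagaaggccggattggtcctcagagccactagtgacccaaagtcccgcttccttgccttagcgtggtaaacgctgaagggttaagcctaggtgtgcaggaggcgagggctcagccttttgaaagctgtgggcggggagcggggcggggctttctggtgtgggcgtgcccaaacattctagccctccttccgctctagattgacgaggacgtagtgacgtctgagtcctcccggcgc

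A window was present for 37 of the 46 genes, and 15 of the 37 (40.5%) held at least 1 E2F-type word. The same words were in 387 of 8529 windows of tested genes (4.54%) and in 629 of 27025 windows of all genes (2.33%), with 1 window per gene. Among the MCM2-7 genes with a window, 4 of 5 held one, and Mcm2 was the exception. Of the 21 matches, 14 began within 50 bases of the annotated start. The window ends 50 bases after the start, so every match after the start falls in this range. The share near the start in windows of other genes was not counted. Matches on opposite strands that share bases, as in Mcm5 and Mcm6, were counted separately. The CCAAT box (CCAAT, either strand) was in 21 of 37 replication gene windows (56.8%), in 40.3% of the windows of tested genes and in 38.02% of those of all genes. The CHR element (TTTGAA, either strand), known from genes of late cell cycle, was in 6 of 37 (16.2%), in 12.3% of the windows of tested genes and in 18.2% of those of all genes, so the replication genes lay between these shares. The 15 genes with an E2F-type word had a median log2 fold change over 3 days of 0.40, and the 22 without one had 0.31, with ranges of 0.06 to 0.66 and -0.11 to 0.63 that overlapped widely. These matches are descriptions of letters in a window and say nothing on whether a factor binds there. Mcm4, Gmnn, Gins1, Gins2, Gins4, Prim2, Pole, Rfc2 and Tipin had no window in the table.

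**Figure D3:**
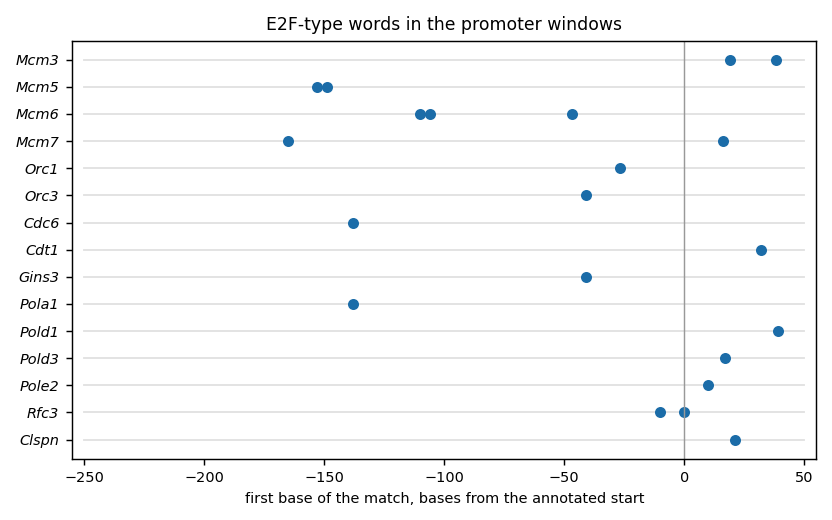
Position of each E2F-type word in the promoter windows of the 15 replication genes that held one, as the distance in bases of its first base from the annotated start. The 21 matches lie between -165 and 39, and 14 of them are within 50 bases of the start. Each window ends 50 bases after the start.

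The origin recognition complex, which marks origins and starts the loading of the helicase, held both the largest log2 fold change over 3 days and the only negative one. Orc1 (Entrez 18392, chr4:108575705-108616030) encodes a subunit whose level varies over the cell cycle in many mammalian cells. It was at 16.6, 18.4 and 22.5 CPM in WT on days 7, 10 and 14 and at 11.5, 12.4 and 12.3 CPM in Il21r-/-. The means were 19.2 ± 3.01 CPM (SD, n = 3) and 12.1 ± 0.507 CPM (SD, n = 3). The Il21r-/- libraries hardly differed among themselves, and all lay below the lowest WT library. Orc1 was 1.58-fold higher in WT over the 3 days, a log2 fold change of 0.66 (SE 0.127, adjusted p = 0.0195, with day as a block 0.000123). In the main tests per day it was the only replication gene called. Its log2 fold change on day 14 was 0.87 (adjusted p = 0.0329), where 0.727% of all genes were called higher in WT. With dispersions from the fit with day as a block, 15 replication genes were called on day 14, Orc1 among them (3.51% of all genes). The main Orc1 call on day 14 was lost in 6 of 14 alternatives, with adjusted p-values of up to 0.9996. The lowest library had 263 counts on Orc1, the fewest of any replication gene. Without the WT day 7, WT day 10, WT day 14 or Il21r-/- day 14 library the adjusted p over 3 days was 0.0555, 0.0645, 0.203 and 0.124, each with a positive log2 fold change of at least 0.57.

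The Orc1 window, chr4:108579204-108579503 on the plus strand, held 1 E2F-type word, just before the start used for the window. That start lies 3.75 kb inside the span given above, which comes from a RefSeq gene table.
Orc1: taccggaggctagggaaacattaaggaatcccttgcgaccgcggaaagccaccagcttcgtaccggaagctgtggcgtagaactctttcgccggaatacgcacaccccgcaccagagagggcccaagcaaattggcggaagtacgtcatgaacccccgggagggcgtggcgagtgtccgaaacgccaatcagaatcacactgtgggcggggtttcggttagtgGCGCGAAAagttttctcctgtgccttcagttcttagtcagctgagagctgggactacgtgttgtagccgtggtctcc

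Orc5 (Entrez 26429, chr5:22486480-22550338) encodes a core subunit that is not known to vary over the cell cycle as Orc1 does. Its levels were 58.6, 62.4 and 57.4 CPM in WT and 65.6, 62.8 and 63.7 CPM in Il21r-/-. All Il21r-/- libraries were above all WT libraries, but on day 10 by less than 1 CPM, and the log2 fold change of -0.11 (SE 0.095, adjusted p = 0.568, with the block 0.409) was not called. Orc3 had a log2 fold change of 0.06 (SE 0.091) with overlapping groups. Orc2 and Orc6, at 0.32 and 0.30, were called with the block (adjusted p = 0.00732 and 0.00792) and not with linear day. The summed level of the 5 genes in Il21r-/- was 96.4% of WT on day 7, 84% on day 10 and 83.1% on day 14.

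Helicase loading is carried out by Cdc6 and Cdt1 and held back by geminin, the product of Gmnn, which binds Cdt1 in S and G2 and prevents a second round. Cdt1 was at 64.6, 82.2 and 63.9 CPM in WT and at 46.8, 60.6 and 48 CPM in Il21r-/-. Day 10 was the highest day in both genotypes, and no Il21r-/- library reached the lowest WT library. The log2 fold change of Cdt1 was 0.44 (SE 0.147, adjusted p = 0.129, with the block 0.000323). Gmnn was at 132, 152 and 180 CPM in WT and at 120, 107 and 147 CPM in Il21r-/-, with a log2 fold change of 0.31 (SE 0.109, adjusted p = 0.151, with the block 0.00647). Here the groups overlapped, since the Il21r-/- day 14 library was above WT on day 7. Cdc6, at 0.42, lay close to Cdt1 and was called with the block (adjusted p = 0.000535). The activator genes and the inhibitor thus lay on the same side.

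The Cdt1 window, chr8:122567765-122568064 on the plus strand, held 1 E2F-type word, after the annotated start.
Cdt1: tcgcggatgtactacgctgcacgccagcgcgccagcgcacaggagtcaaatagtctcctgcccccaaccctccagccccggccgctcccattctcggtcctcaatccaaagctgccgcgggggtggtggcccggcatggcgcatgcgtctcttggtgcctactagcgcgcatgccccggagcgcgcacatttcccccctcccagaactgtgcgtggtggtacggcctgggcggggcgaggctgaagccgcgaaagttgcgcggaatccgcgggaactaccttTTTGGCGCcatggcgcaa

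Origin firing turns the loaded helicase into a moving one. Mcm10, which helps to activate the helicase, was at 36, 62.2 and 70.3 CPM in WT on days 7, 10 and 14 and at 28.5, 41.6 and 35.7 CPM in Il21r-/-. Its Il21r-/- level was 79.1% of WT on day 7, 66.9% on day 10 and 50.8% on day 14. WT on day 7 was below Il21r-/- on day 10, so the groups overlapped. The log2 fold change over 3 days was 0.63 (SE 0.180, adjusted p = 0.0816, with the block 9.63e-05). On day 14 it was 0.98 (adjusted p = 0.0880), the largest of any replication gene on any day. With dispersions from the fit with day as a block, Mcm10 was called on days 10 and 14.

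Cdc7, the kinase that triggers firing, showed no such gap, at 39.5, 37.1 and 42.8 CPM in WT and 36, 36.4 and 42.3 CPM in Il21r-/- (log2 fold change 0.06, SE 0.105, adjusted p = 0.790, with the block 0.706). Its groups overlapped, and the day 14 libraries were the highest of each genotype. Dbf4, the regulatory subunit without which Cdc7 is inactive, had 0.37 (SE 0.104, adjusted p = 0.0754, with the block 0.00147) and groups that did not overlap. Cdc45 and the 4 GINS genes, which complete the active helicase, had log2 fold changes of 0.24 (Gins4) to 0.47 (Gins1), and all 5 were called with the block and none with linear day. Gins1 had the largest difference of all replication genes on day 10, 0.75 (adjusted p = 0.114), from 46.3 CPM in WT and 27.5 CPM in Il21r-/-. It was called on that day with dispersions from the fit with day as a block.

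The Mcm10 window, chr2:5012742-5013041 on the minus strand, held no E2F-type word.
Mcm10: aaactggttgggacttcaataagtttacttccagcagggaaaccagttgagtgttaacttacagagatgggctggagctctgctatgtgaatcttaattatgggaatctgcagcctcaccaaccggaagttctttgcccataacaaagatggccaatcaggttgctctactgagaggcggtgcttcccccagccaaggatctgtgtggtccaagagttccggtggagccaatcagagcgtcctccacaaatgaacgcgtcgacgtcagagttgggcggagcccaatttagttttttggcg

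Among the polymerases and the primase, Pole2 (Entrez 18974, chr12:69201773-69228205), which encodes the second subunit of the leading-strand polymerase epsilon, was called over 3 days. It was at 62, 68.1 and 83.5 CPM in WT and at 47.6, 48.1 and 59.7 CPM in Il21r-/-. Every WT library was above every Il21r-/- library, and day 14 was the highest day in both genotypes. The log2 fold change was 0.45 (SE 0.097, adjusted p = 0.0298, with the block 0.000218). The call was lost when any 1 library other than Il21r-/- day 10 was left out, with adjusted p-values of 0.0512 to 0.271.

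Prim2, the large subunit of the primase that starts each new strand, had the smallest difference of this group. It was at 59.9, 76.3 and 87.8 CPM in WT and at 60.3, 60.3 and 82.1 CPM in Il21r-/- (log2 fold change 0.14, SE 0.103, adjusted p = 0.481, with the block 0.263). The day 7 libraries were nearly level. Prim1, the catalytic subunit, had 0.22 and was called in neither fit. The other polymerase genes, Pola1 and Pola2 of polymerase alpha, Pold1, Pold2 and Pold3 of the lagging-strand polymerase delta and Pole, the catalytic subunit of epsilon, had 0.28 to 0.42 and were called with the block and not with linear day.

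The Pole2 window, chr12:69228141-69228440 on the minus strand, held 1 E2F-type word, just after the annotated start.
Pole2: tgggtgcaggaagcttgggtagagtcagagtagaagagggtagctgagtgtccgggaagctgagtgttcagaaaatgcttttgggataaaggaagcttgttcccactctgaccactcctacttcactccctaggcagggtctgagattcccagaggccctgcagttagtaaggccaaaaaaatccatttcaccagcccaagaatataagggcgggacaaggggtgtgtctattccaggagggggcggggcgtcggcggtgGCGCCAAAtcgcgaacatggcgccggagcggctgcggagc

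The 6 clamp genes had a median log2 fold change over 3 days of 0.23, and those of Rfc1, Pcna and Rfc4 lay above it. Pcna, the sliding clamp that tethers polymerases to DNA, had the highest level per length of all 46 genes in every library, 344 to 567 CPM per kb, and a log2 fold change of 0.31 (SE 0.103, adjusted p = 0.128, with the block 0.00259). Rfc1, the large subunit of the clamp loader, had the largest difference and the widest spread. It was at 59, 113 and 126 CPM in WT and at 55.5, 96.9 and 67.2 CPM in Il21r-/-. The day 7 libraries were both low, and Il21r-/- was at 94% of WT on day 7, 85.9% on day 10 and 53.5% on day 14. Its log2 fold change of 0.38 (SE 0.238, adjusted p = 0.400, with the block 0.143) was called in neither fit. Rfc2, a small subunit, had the smallest difference, 0.20 (SE 0.092, adjusted p = 0.259, with the block 0.0491), at 360, 370 and 373 CPM in WT and 337, 306 and 318 CPM in Il21r-/- without overlap. The other small subunits had 0.21 (Rfc5), 0.22 (Rfc3) and 0.25 (Rfc4), and of these Rfc4 was called with the block.

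The Rfc1 window, chr5:65335590-65335889 on the minus strand, held no E2F-type word. Its start lies 2.98 kb inside the gene span of the RefSeq gene table.
Rfc1: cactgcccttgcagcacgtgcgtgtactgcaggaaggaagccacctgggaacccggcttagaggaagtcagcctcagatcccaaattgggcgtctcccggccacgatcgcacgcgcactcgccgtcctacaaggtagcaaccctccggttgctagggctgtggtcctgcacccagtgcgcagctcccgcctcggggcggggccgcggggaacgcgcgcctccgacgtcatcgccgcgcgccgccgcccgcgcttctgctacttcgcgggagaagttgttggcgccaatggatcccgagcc

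The single-strand binding protein RPA coats unwound DNA in replication and in repair, and its 3 genes had a median log2 fold change of 0.19. Rpa2 was at 117, 143 and 140 CPM in WT and at 93.9, 108 and 122 CPM in Il21r-/- (log2 fold change 0.31, SE 0.098, adjusted p = 0.109, with the block 0.00574). The groups overlapped in that Il21r-/- on day 14 was above WT on day 7. Rpa1 was at 335, 355 and 369 CPM in WT and at 325, 325 and 297 CPM in Il21r-/-. Although these groups did not overlap, the log2 fold change of 0.16 (SE 0.096, adjusted p = 0.381, with the block 0.127) was called in neither fit. Rpa3 had 0.19 over 3 days and -0.06 on day 7.

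Lig1, which seals Okazaki fragments, was at 161, 237 and 246 CPM in WT and at 140, 178 and 163 CPM in Il21r-/-. WT on day 7 was below both later Il21r-/- libraries, and Il21r-/- was at 87% of WT on day 7, 75.1% on day 10 and 66.3% on day 14. Its log2 fold change was 0.40 (SE 0.134, adjusted p = 0.126, with the block 0.000523). Dna2, a nuclease that trims long flaps, was at 44, 57.6 and 50.5 CPM in WT and at 41.3, 41.3 and 44.6 CPM in Il21r-/- (0.26, SE 0.118, adjusted p = 0.251, with the block 0.0573). Fen1, the main flap nuclease, had 0.40 with groups that did not overlap and was called with the block (adjusted p = 0.000274).

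Timeless and Tipin, which bind each other, and Clspn, the gene of claspin, hold the fork together and pass on the checkpoint signal when it stalls. Timeless was at 34.3, 48.7 and 47.7 CPM in WT and at 22, 38.9 and 29.5 CPM in Il21r-/- (0.53, SE 0.190, adjusted p = 0.156, with the block 0.000141). On day 7 its difference of 0.64 was the largest of the replication genes, but the groups overlapped because Il21r-/- on day 10 was above WT on day 7. Tipin was at 144, 185 and 203 CPM in WT and at 137, 142 and 148 CPM in Il21r-/- (0.30, SE 0.106, adjusted p = 0.141, with the block 0.00823). On day 7 Tipin had 0.07. Neither gene was called on that day in the main test, and Timeless was called with dispersions from the fit with day as a block. Clspn had 0.51 (SE 0.231, adjusted p = 0.251, with the block 0.00145) and 0.85 on day 14 (adjusted p = 0.380). With dispersions from the fit with day as a block, Clspn was called on day 14.

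Day by day, with likelihood ratio tests on a mean per day, the median log2 fold change of the replication genes was 0.22 on day 7, 0.39 on day 10 and 0.34 on day 14, and 0.00, -0.02 and -0.01 among all genes. On day 7, 41 of the 46 were positive and 0 were called (6 at an unadjusted p under 0.05, against 5.51% of all genes), where 1.07% of all genes were called in either direction. On day 10, 45 were positive and 0 were called (15 unadjusted, against 10.8% of all genes), where 3.1% of all genes were. On day 14, 45 were positive and 1, Orc1, was called (15 unadjusted, against 12.1% of all genes). Of all genes, 80 (0.727%) were called higher in WT on day 14 and 281 higher in Il21r-/-. These counts were 22 and 96 on day 7 and 55 and 286 on day 10. Each of these likelihood ratio tests compares 1 library with 1 library and takes its spread from the fit over all days. With dispersions from the fit with day as a block, 3 replication genes were called higher in WT on day 7 (0.754% of all genes). On day 10 there were 6 (1.83%) and on day 14 there were 15 (3.51%).

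Whether the genotype gap itself moved with day was tested as a difference in the linear trend between genotypes. By edgeR's quasi-likelihood test 0 of the 46 genes passed and 0 had an unadjusted p under 0.05. Of all genes, 0% were called and 118 had an unadjusted p under 0.05. The larger Mcm10, Orc1, Rfc1 and Clspn gaps on day 14 are therefore values that this test did not separate from the other days.

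Within each genotype day 7 tended to be the lowest day. In WT, 42 of the 46 genes had their lowest level on day 7, as did 37.1% of all 11005 genes tested, with a median ratio of day 10 over day 7 of 1.22 and of day 14 over day 7 of 1.25. In Il21r-/-, 32 of the 46 were lowest on day 7, against 29.7% of all genes, and the median ratios were 1.08 and 1.17. The largest WT ratio was 2.17 on day 14, for Clspn, which went from 26.2 CPM on day 7 to 55.2 and 56.9 CPM. No replication gene was called for a linear day trend over both genotypes by the quasi-likelihood test (15 unadjusted, against 23.5% of all genes, 42 positive, median 0.03 per day on the log2 scale), where 4.43% of all genes were called. WT on day 7 was below Il21r-/- on day 10 for 12 of the 46 genes, against 50.9% of all genes. It was below Il21r-/- on day 14 for 23 of the 46, against 49.5% of all genes. The day 14 count was near the share over all genes, and the day 10 count was below it.

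The libraries also differed in how level depended on the gene length given with the counts, and the replication genes followed this. The rank correlation across genes of the deviation from the gene's mean with length was 0.52 in Il21r-/- on day 10 and -0.43 in Il21r-/- on day 14 over all genes, and 0.74 and -0.70 over the 46 genes, which are 638 to 7129 bases long. Genes share these libraries and are not independent, so the values are descriptions. On day 7 the shorter 23 replication genes had a median log2 fold change of 0.10 and the longer 23 had 0.34. On day 10 these were 0.43 and 0.38, and on day 14 they were 0.30 and 0.47. With the length trend over all genes removed from each library, 45 genes stayed positive over 3 days. The medians over the 46 genes were then 0.36 over 3 days, 0.23 on day 7, 0.41 on day 10 and 0.38 on day 14. The shorter and longer genes still differed, with medians of 0.14 and 0.31 on day 7. On day 10 these were 0.38 and 0.42, and on day 14 they were 0.34 and 0.40. The cause of the length trend was not tested.

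**Figure D4:**
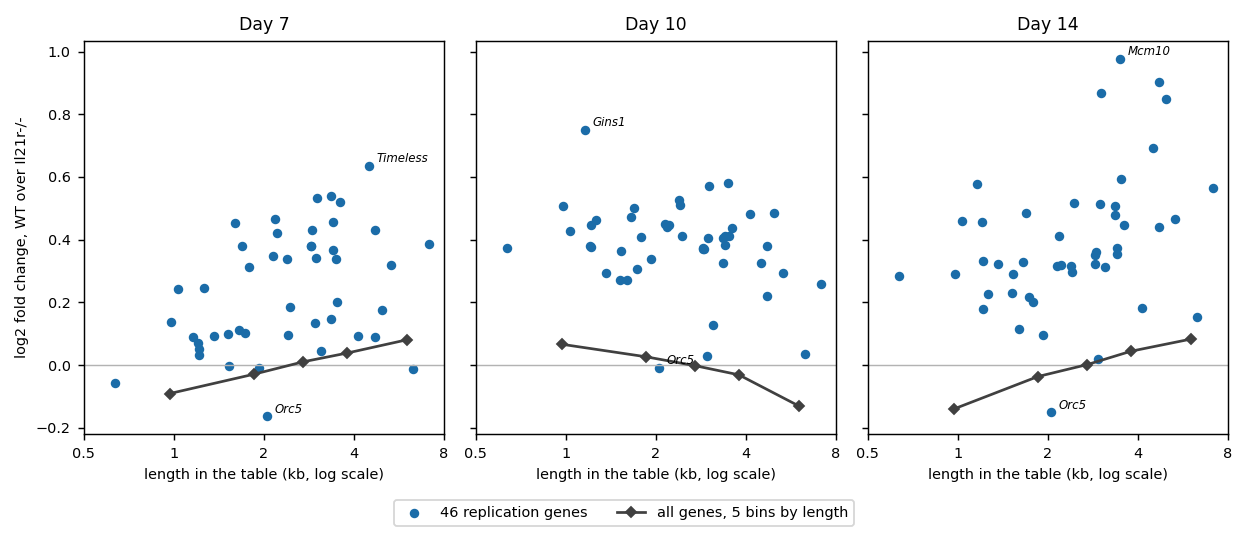
The log2 fold change of each replication gene on each day (points) against its length in kb on a log axis, with the median of all genes in 5 bins by length (line with markers). The replication genes lie mostly above the line on all 3 days, whose slope is upward on days 7 and 14 and downward on day 10.

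Per gene length given with the counts, the replication genes spanned 76 to 119-fold within a library. Pcna was at the top in all 6 libraries, and Orc1 was at the bottom in 5, with Clspn in its place in WT on day 7. The order was close to the same in all libraries, with rank correlations across the 46 genes of 0.985 to 0.994 between pairs of libraries. Of the 45 pairs of neighbours in the WT order, 2 had WT values that did not overlap, Pcna over Mcm5 and Orc5 over Orc2, so most neighbours cannot be ranked. Of 8 ratios of partner genes, 6 moved in different directions on different days and 2 in the same direction on all 3 days. Orc1 relative to Orc2 was lower in Il21r-/- on each day, at -2.32, -2.27 and -2.28 on a log2 scale of CPM per kb, than in WT, at -1.93, -2.02 and -1.89. Dbf4 relative to Cdc7 was also lower in Il21r-/- on each day, by a margin that was small on day 7 (1.83 against 1.88) and larger on days 10 (1.81 against 2.20) and 14 (1.47 against 1.97). These ratios were not tested.

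**Figure D5:**
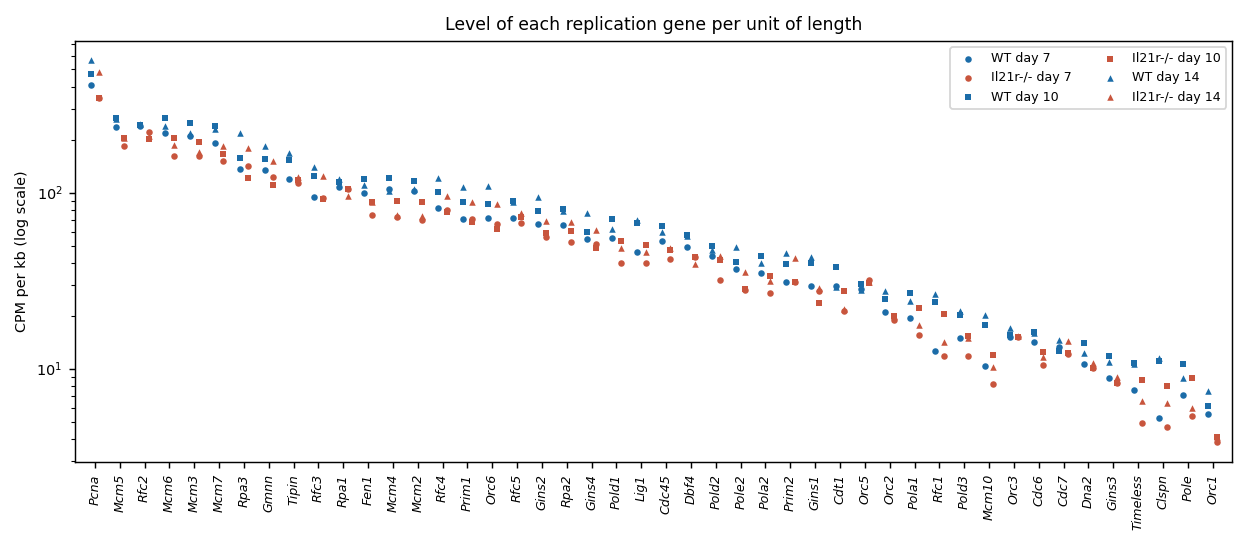
Level of each replication gene in CPM per kb on a log axis, in each library, ordered by the WT mean. Pcna is the highest in all 6 libraries, and the Il21r-/- points (red) sit below the WT points (blue) of the same day for most genes from the highest to the lowest level.

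Other genes that act in or around S phase lay on the same side. The shares of all genes called higher in WT, 1.4% with linear day and 9.33% with day as a block, are the background for the counts of each list. Of 32 further replication genes, 30 had a positive log2 fold change over 3 days (median 0.30), 3 were called higher in WT and 0 lower, and 17 were called higher with day as a block. The 3 were Asf1b, a histone chaperone of the fork (0.43, adjusted p = 0.0274), Esco2, the cohesin acetyltransferase of S phase (0.60, adjusted p = 0.0280), and Wdhd1, which couples polymerase alpha to the helicase (0.45, adjusted p = 0.0382). Of 18 genes of deoxynucleotide synthesis, 17 were positive (median 0.24), and 2 were called higher in WT and 0 lower, with 10 higher under the block. Rrm2, the S-phase subunit of ribonucleotide reductase, was one of those called (0.48, adjusted p = 0.0273). Of 12 G1/S cyclins, kinases and E2F genes, all were positive (median 0.25), and Ccne1, which encodes cyclin E1, was called (0.51, adjusted p = 0.0379), with 8 called under the block.

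Mitotic genes, which are transcribed later in the cycle, served as a comparison. All 24 were positive over 3 days (median 0.34), 0 were called (17 unadjusted, against 21.4% of all genes), and 19 were called higher in WT with day as a block, against 9.33% of all genes. Their median on day 7 was 0.11, against 0.22 for the replication genes, and on days 10 and 14 it was 0.41 and 0.38, against 0.39 and 0.34. The summed mitotic level in Il21r-/- was 91.1% of WT on day 7, 76% on day 10 and 75.8% on day 14. The difference between the lists was not tested, and the genotype gap of the replication genes is not particular to them.

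Of the 46 genes, 21 overlap another annotated gene, 11 of them a protein-coding one. The library kit does not mark strand, so reads in exons that both genes share cannot be assigned to 1 gene. How much of the shared parts is exon was not measured. Among the 21 genes, Orc1 shares 3632 bases of its span with Prpf38a, and Pole2 shares 477 with Klhdc1, introns included.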

How the data were processed

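RNA from sorted GC B cells was sequenced as single-end reads in 6 libraries. Per the methods, the authors aligned reads to mm10 with Rsubread, counted them per gene with featureCounts and its inbuilt RefSeq annotation, and pooled technical replicates. The deposited values were whole-number read counts per gene, not normalized, with the gene length in bases, which the authors' counting annotation gave. Symbols came from RefSeq for 25275 of 27179 genes. As in the study's methods, the tests left out genes with an average log2 CPM under 0, Ig variable genes, Xist and Y-linked genes, which left 11005, a number that differs from the one stated there. Counts were scaled by TMM and tested in edgeR 4.0.16 (R 4.3.3), with a quasi-likelihood test on genotype and linear day (3 residual degrees of freedom) and likelihood ratio tests per day. Benjamini-Hochberg adjustment ran over all 11005 genes. CPM are TMM-scaled. Same-day libraries deviated together (r = 0.636, 0.402 and 0.638 over all genes on days 7, 10 and 14), so day served as a replicate block in a second fit. That fit left only 2 residual degrees of freedom, as did the fit for the difference in day trend. DESeq2 1.42.0 was an alternative. Genes written with values were those called over 3 days or on a day, the largest and smallest difference of each role group, Orc5 for its sign, and others by range. The code was tested on simulated data. Single values of some list genes are not reported here. The 46 genes, the wider lists and the tests were chosen with earlier results of these data known, and the removal of the length trend was added after seeing them.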

Additional observations from a re-analysis of the deposited data

How the results depend on the processing

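The main fit called 2 replication genes higher in WT over 3 days, and no alternative called one lower. The share of all genes called higher in WT moved as well, and is given in brackets. The count was 5 with DESeq2 size factors (1.62%), 4 with at least 10 counts in every library (1.31%), 14 with all genes that had any count (1.67%), 18 with DESeq2's Wald test (2.89%) and 26 with the length trend removed (4.7%). With day as a replicate block it was 35 (9.33%), and 39 with the length trend removed as well (12.5%). Within the block fit it was 39, 24 and 18 without the day 7, day 10 and day 14 pair (7.69, 5.89 and 2.9%). Leaving out 1 library in turn gave 0 (without WT day 10, WT day 14 or Il21r-/- day 14) to 27 (without Il21r-/- day 10, 8.7%).

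For the day trend, where the main fit called 0, the counts higher on later days were 5 with any count (1.45% of all genes), 6 with DESeq2's Wald test (2.58%) and 7 with the length trend removed (3.85%), and leaving out 1 library gave 0 to 14, the latter without Il21r-/- day 10 (8.83%). The median difference in day trend, 0.0165 in the main fit, ranged from -0.0151 (without WT day 7) to 0.0659 (without WT day 14) and so has no firm sign. On day 7, 3 genes were called with dispersions from the block fit (0.754%). On day 10 there were 1 with the length trend removed (1.2%), 6 with block dispersions (1.83%) and 9 with the linear day term kept (2.05%), and 0 to 1 when a library was left out. On day 14 there were 0 with any count, with Y-linked, Xist and Ig variable genes kept, with DESeq2's Wald test and with the quasi-likelihood test, 4 with the length trend removed (1.44%) and 15 with block dispersions (3.51%), and 0 to 4 when a library was left out. The Orc1 adjusted p over 3 days ranged from 0.000123 to 0.203 and that of Pole2 from 0.000135 to 0.271 over 18 alternatives.

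The log2 fold change of Cdc7 over 3 days, when a library was left out, ranged from -0.0012 (without WT day 7) to 0.12. The block moved calls of single genes only from not called to called. DESeq2's test per day with a mean per day could not be run, since no residual degrees of freedom remained, and it was run with a linear day term. Having 1 library per genotype and day limits every day-wise value.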
